A study of Mus musculus with 7 samples.

Results

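Fibroblasts of the meninges, the membranes that wrap the spinal cord, were followed through 10 genes that mark them: *Aldh1a2*, *Crabp2*, *Slc6a13*, *Slc22a6*, *Slc47a1*, *Gjb2*, *Foxc1*, *Foxc2*, *Tbx18* and *Myoc*. They were chosen by name, and each matched 1 of the 21965 genes counted. All 10 were among the 15743 genes that passed a filter on low counts. RNASeq was made 3 days after a moderate contusion of the spinal cord (50 kdyn at vertebral level T9), from the 5 mm of cord around the injury epicenter. The *Bmal1*-/- group was 3 mice (2 females as replicates 1 and 2, and 1 male as replicate 3) that carried the *Arntl* tm1Bra allele on the C57BL/6 background (C57BL/6J by the study's methods, for both groups) in every cell of the body. *Arntl* encodes BMAL1, a transcription factor of the circadian clock. These mice were bred from heterozygous parents. The WT group was 4 C57BL/6 mice (2 females as replicates 1 and 2, and 2 males as replicates 3 and 4), of which 1 was a littermate of the knockouts and the others were bought. Both groups were injured and no uninjured cord was sequenced, so the values compare genotypes within the injury.

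The meninges are built of the dura, the arachnoid and the pia, and their fibroblasts arise from mesenchyme that needs the forkhead factors *Foxc1* and *Foxc2*. Arachnoid fibroblasts make retinoic acid, carry transporters that move organic ions and neurotransmitters between the fluid around the cord and the blood, and are coupled by connexins. After contusion, fibroblasts of the meninges and of vessel walls take part in the fibrous scar of the lesion.

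Each library came from 1 mouse and held 38529644 to 44096737 counts, with the highest total in *Bmal1*-/- replicate 2. Levels are in CPM, with counts scaled to a common library total after TMM normalization, a correction for differences in composition between libraries. The *Arntl* gene went against the label: its level was 24.1, 24.2 and 22.5 CPM in the 3 libraries with the knockout label and 11.9 to 15.3 CPM in WT. Counts over a whole gene also hold transcripts that lack the part a knockout allele removes. *Nr1d1* and *Dbp*, direct targets that BMAL1 activates, were lower in the libraries with the knockout label, at 5.31 to 7.28 CPM against 29.2 to 36.8 CPM in WT for *Nr1d1* and 7.80 to 8.83 CPM against 25.3 to 39.3 CPM for *Dbp*, which is the direction of the label. The labels are used as given, and *Bmal1*-/- below means the libraries labelled so. *Bmal1*-/- replicate 2 had the same *Arntl* level as the other 2 mice of its group. In a principal component analysis of all genes, WT replicate 3 stood away from the rest of its group. Markers of the cord itself (7 of astrocytes, 5 of oligodendrocytes and 5 of neurons) were all among the genes tested and none was called as different between genotypes in the test described below. Their sums were not all alike: the astrocyte sum was 15861 to 18412 CPM in *Bmal1*-/- and 10755 to 15061 CPM in WT. The oligodendrocyte sums overlapped between genotypes. The neuron sums, 4244 to 5217 CPM in *Bmal1*-/- and 1630 to 4249 CPM in WT, overlapped narrowly and only through WT replicate 2. Genotype was tested with the quasi-likelihood test of edgeR, adjusted by Benjamini-Hochberg over all genes tested, and a gene is called where its adjusted p was under 0.05.

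BMAL1 binds the E-box CACGTG and a near form of it, CACGTT. Both were looked for, on both strands, in RefSeq promoters of GRCm38.p6 that run from 250 bases before a transcript's start to 50 bases after it. The table held 9 promoters of 7 of the 10 genes, those of *Aldh1a2*, *Slc6a13*, *Slc22a6*, *Gjb2*, *Foxc1*, *Tbx18* and *Myoc*. No CACGTG was in any of them, where 7.15% of 32851 promoters of that length held it. CACGTT was in 1 of the 3 *Slc6a13* promoters, 117 bases before the start, where 4.68% of all promoters held it. The first sequence below is the part of that promoter that lies before the gene's first base in GENCODE, with the near E-box in capitals, read here on the other strand as AACGTG. The second is the promoter of *Myoc*, the gene with the largest difference between genotypes, with a TATAAA motif in capitals. That motif starts 26 bases before the start and was in no other promoter of the 7 genes, where 13.6% of all promoters held it on either strand. A match is a description of the letters and not a bound site.
Slc6a13, GRCm38.p6 chr6:121300038-121300226, plus strand: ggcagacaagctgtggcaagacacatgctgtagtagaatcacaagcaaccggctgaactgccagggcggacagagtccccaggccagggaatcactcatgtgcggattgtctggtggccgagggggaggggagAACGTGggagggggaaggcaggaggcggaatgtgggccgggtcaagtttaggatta
Myoc, GRCm38.p6 chr1:162638900-162639149, plus strand: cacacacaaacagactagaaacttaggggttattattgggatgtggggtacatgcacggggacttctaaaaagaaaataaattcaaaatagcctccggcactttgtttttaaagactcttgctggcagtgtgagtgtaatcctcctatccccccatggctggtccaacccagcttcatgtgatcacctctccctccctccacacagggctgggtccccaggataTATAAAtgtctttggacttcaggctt

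The 10 genes shared a pattern across the 7 mice that the genotype alone did not describe. In *Bmal1*-/- replicates 1 and 3, 9 of the 10 were under every WT value, while *Bmal1*-/- replicate 2 stood close to WT for most of them. The levels of the 10 genes summed to 35.2 and 30.9 CPM in *Bmal1*-/- replicates 1 and 3 and to 147 CPM in replicate 2. The WT sums were 137, 177, 83.0 and 97.5 CPM. Relative to the WT mean, the median of the 10 genes on the log2 scale was -2.33 and -2.97 in *Bmal1*-/- replicates 1 and 3 and -0.16 in replicate 2, and -0.56 to 0.58 in the WT libraries. In bulk tissue, fewer cells of a type and less RNA per cell cannot be told apart.

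**Figure D1:**
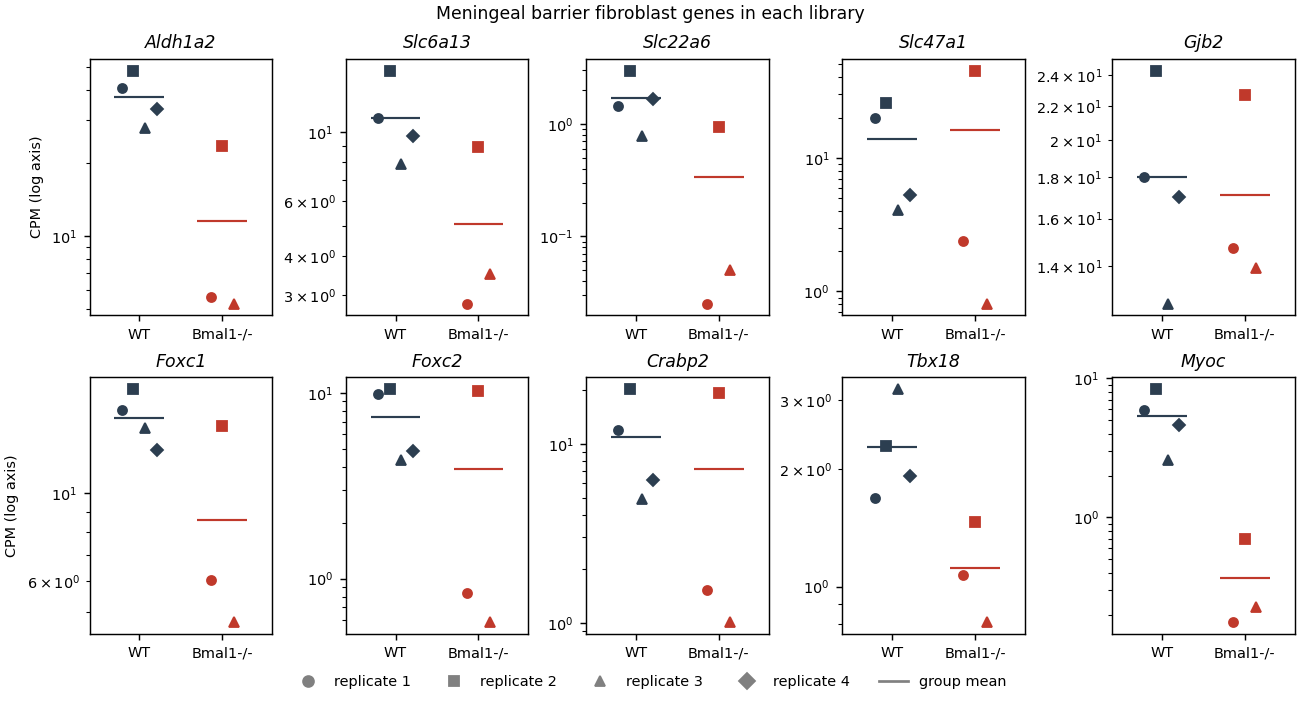
Level of each of the 10 genes in each library, as CPM on a log axis, with WT in dark blue and Bmal1-/- in red; symbols mark the replicate number and horizontal lines the group mean. Bmal1-/- replicate 2 (red square) is the highest of its group in all 10 panels, and Myoc, Aldh1a2 and Tbx18 are the panels in which no red symbol reaches a WT symbol.

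With all 7 libraries, *Myoc* was called lower in *Bmal1*-/- and the other 9 genes were not called in either direction. At an unadjusted p under 0.05, 5 of the 10 were lower (*Aldh1a2*, *Slc6a13*, *Slc22a6*, *Tbx18* and *Myoc*) and 0 were higher. Of all genes tested, 12.2% were lower and 8.64% were higher at that unadjusted threshold, and the unadjusted counts given for other lists stand beside these shares. Over all genes tested, 0.915% were called lower and 0.654% were called higher. The edgeR calls given for other lists stand beside these 2 shares. Between genotypes the log2 fold change was negative for 9 of the 10 genes, and its median was -0.97 where the median over all genes tested was -0.01. *Aldh1a2*, *Tbx18* and *Myoc* had all 3 *Bmal1*-/- values under the 4 WT values, as did 13.5% of all genes tested. The 9 genes with *Bmal1*-/- replicates 1 and 3 both under the 4 WT values, all but *Gjb2*, compare with 19.6% of all genes. *Bmal1*-/- replicate 2 lay within the WT range for *Slc6a13*, *Slc22a6*, *Gjb2*, *Foxc1*, *Foxc2* and *Crabp2*, as it did for 53.8% of all genes.

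Without *Bmal1*-/- replicate 2, 5 of the 10 genes were called lower, *Aldh1a2*, *Slc22a6*, *Foxc1*, *Foxc2* and *Myoc*, where 0.838% of the 15872 genes tested in that fit were. The median log2 fold change of the 10 genes was then -2.94. DESeq2's default Wald test on all 7 libraries called *Aldh1a2*, *Tbx18* and *Myoc* lower, with 5.81% of all genes called lower by that test. The lower calls of DESeq2 given for other lists stand beside that share. The test without replicate 2 rests on 2 mice against 4, and that mouse was singled out after the values had been seen.

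**Figure D2:**
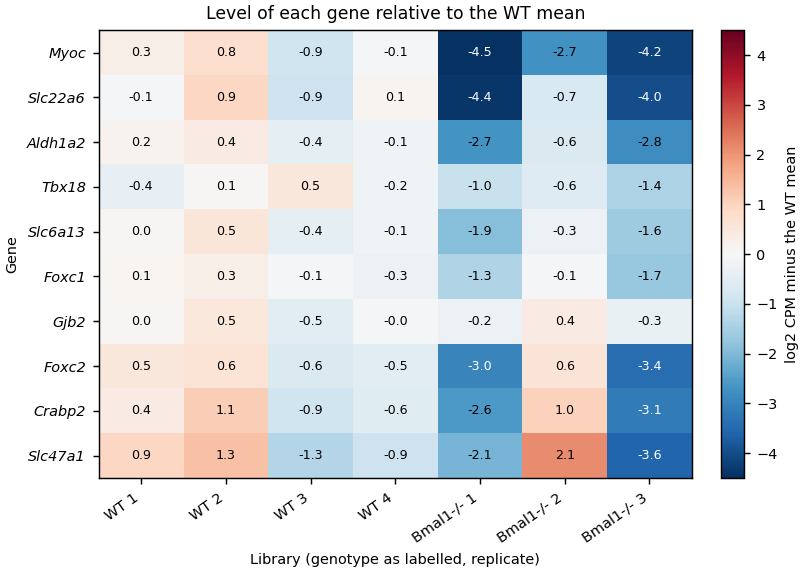
Log2 CPM of each gene (rows) in each library (columns) minus the mean of the 4 WT libraries, with blue below and red above the WT mean. Genes are ordered by their value in Bmal1-/- replicate 2, which runs from -2.74 for Myoc to 2.12 for Slc47a1, while Bmal1-/- replicates 1 and 3 are blue for every gene.

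The retinoic acid route was represented by *Aldh1a2* and *Crabp2*. *Aldh1a2* encodes retinaldehyde dehydrogenase 2, which makes retinoic acid from retinaldehyde. It lies on chromosome 9 from 71215789 to 71296243 (GRCm38). Its levels were 5.59, 23.6 and 5.25 CPM in *Bmal1*-/- replicates 1, 2 and 3, and 40.9, 48.1, 28.0 and 33.3 CPM in WT replicates 1 to 4. The groups did not overlap, and replicates 1 and 3 stood at 14.9% and 14.0% of the WT mean while replicate 2 stood at 62.7% of it. Group means were 11.5 ± 10.5 CPM (SD, n = 3) and 37.6 ± 8.79 CPM (SD, n = 4), which gave a log2 fold change of -1.71 ± 0.55 (SE; adjusted p = 0.168). Without replicate 2 the log2 fold change was -2.79 ± 0.25 (SE) and the adjusted p was 0.00848. *Crabp2*, which binds retinoic acid in the cytosol and carries it to its nuclear receptor, lies on chromosome 3 from 87948666 to 87953376. Its level was 1.52, 19.1 and 1.02 CPM in *Bmal1*-/- and 11.99, 20.2, 4.92 and 6.30 CPM in WT. Replicate 2 thus lay near the top of the WT range and the other 2 *Bmal1*-/- mice under its bottom. The log2 fold change was -0.59 ± 1.01 (SE; adjusted p = 0.730) with all libraries and -3.09 (adjusted p = 0.111) without replicate 2. Set against *Aldh1a2* in the same library, per kilobase of exon, *Crabp2* was 1.39 times as abundant in *Bmal1*-/- replicate 2 and 0.301 to 0.718 times in the other 6 libraries. This ratio and the other ratios between genes were chosen after the values had been seen.

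Other genes of retinoic acid synthesis, binding, clearance and signalling differed less as a list. Of 16 listed, 14 were tested and edgeR called none (5 were lower at an unadjusted p under 0.05, and DESeq2 called 3 of them lower), and the median log2 fold change was -0.23 (-0.31 without replicate 2). The most abundant were *Aldh1a1*, which encodes another retinaldehyde dehydrogenase, with a log2 fold change of -0.15 (adjusted p = 0.448), and *Rxra*, a retinoid receptor, with 0.00 at 2 decimals (adjusted p = 0.990). *Stra6*, the membrane receptor for retinol binding protein, was among the genes called lower without replicate 2 (adjusted p = 0.0479). Its level was 2.13, 35.5 and 1.83 CPM in *Bmal1*-/- and 13.6 to 42.4 CPM in WT, and replicate 2 again lay within the WT range and the other 2 mice under it. It was the single gene of this list at least 2-fold higher in replicate 2 than in both other *Bmal1*-/- mice.

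The transporters were *Slc6a13*, *Slc22a6* and *Slc47a1*. *Slc6a13* encodes GAT2, which takes up GABA and taurine, and lies on chromosome 6 from 121300227 to 121337733. Its level was 2.82, 8.91 and 3.50 CPM in *Bmal1*-/- and 11.0, 15.7, 7.91 and 9.68 CPM in WT. Replicate 2 lay inside the WT range and the other 2 mice below it. The means were 5.08 ± 3.34 CPM (SD, n = 3) and 11.1 ± 3.32 CPM (SD, n = 4), which gave a log2 fold change of -1.12 ± 0.43 (SE; adjusted p = 0.210). Without replicate 2 it was -1.81, and the adjusted p of 0.0588 missed the threshold.

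*Slc22a6* encodes OAT1, an exchanger of organic anions, and lies on chromosome 19 from 8618039 to 8628299. It had 1, 40 and 2 counts in *Bmal1*-/- replicates 1, 2 and 3, and 56, 115, 31 and 66 counts in WT replicates 1 to 4. Replicates 1 and 3 were thus close to 0 and their levels imprecise, while replicate 2 lay inside the WT range. As levels these were 0.0254, 0.928 and 0.0508 CPM against 1.43, 2.96, 0.774 and 1.66 CPM. Between genotypes the log2 fold change was -2.30 ± 0.96 (SE; adjusted p = 0.234) with all libraries, and without replicate 2 the gene was called lower (adjusted p = 0.0489). With the counts of replicates 1 and 3 added together, 3 against 268 in WT, the WT level was 44.6 times theirs, with an exact 95% interval of 15.1 to 218 that covers counting error only. Those 2 mice were picked after their values had been seen, so this interval does not measure the genotype difference.

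*Slc47a1* encodes MATE1, which exports organic cations, and lies on chromosome 11 from 61343401 to 61378345. Its levels were 2.39, 44.9 and 0.812 CPM in *Bmal1*-/- and 19.7, 25.9, 4.07 and 5.30 CPM in WT. It was the single gene of the 10 for which replicate 2 lay above every WT library, at 327% of the WT mean, while replicates 1 and 3 stood at 17.4% and 5.91%. Replicate 2 was 18.8 and 55.3 times the other 2 mice, and WT itself spanned 6.36-fold from lowest to highest. The log2 fold change was 0.23 ± 1.25 (SE; adjusted p = 0.923), and its sign turned with limma-voom, with sex as a covariate, with the replicate block and without replicate 2 or either WT male. Per kilobase, *Slc47a1* was 1.28 times as abundant as *Aldh1a2* in *Bmal1*-/- replicate 2 and 0.0974 to 0.360 times in the other 6 libraries.

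Of 13 further transporters of meninges, GABA and organic ions, 12 were tested and edgeR and DESeq2 called none (1 was lower at an unadjusted p under 0.05), with a median log2 fold change of -0.12 (-0.14 without replicate 2). *Slc6a11*, which encodes a GABA transporter of astrocytes and was among the most abundant, had a log2 fold change of -0.18 (adjusted p = 0.718). Of the 12, 3 were at least 2-fold higher in replicate 2 than in both other *Bmal1*-/- mice, against all 3 of the transporters among the barrier genes.

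*Gjb2* encodes connexin 26, a gap junction protein, and lies on chromosome 14 from 57098600 to 57104702. It was the gene that differed least between genotypes. Its level was 14.7, 22.7 and 13.9 CPM in *Bmal1*-/- and 18.0, 24.3, 12.6 and 17.0 CPM in WT, so that all 3 *Bmal1*-/- values lay within the WT range. The means were 17.1 ± 4.85 CPM (SD, n = 3) and 18.0 ± 4.84 CPM (SD, n = 4), which gave a log2 fold change of -0.07 ± 0.25 (SE; adjusted p = 0.878) whose sign turned when *Bmal1*-/- replicate 1, *Bmal1*-/- replicate 3 or WT replicate 2 was left out. Replicate 2 was again the highest of its group. None of 8 other connexin genes was called by edgeR or DESeq2 (2 were lower and 1 higher at an unadjusted p under 0.05), and their median log2 fold change was -0.10. *Gja1*, connexin 43 of astrocytes, had a log2 fold change of 0.02 (adjusted p = 0.955), and *Gjb1*, connexin 32 of myelinating cells, had -0.12 (adjusted p = 0.581).

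The transcription factors differed in how far they followed the pattern. *Foxc1*, on chromosome 13 from 31806633 to 31812476, was counted at 6.02, 14.9 and 4.72 CPM in *Bmal1*-/- and 16.3, 18.4, 14.6 and 12.9 CPM in WT. WT mice were close to each other for this gene, with 1.43-fold between lowest and highest, and replicate 2 lay among them at 95.6% of their mean. Between genotypes the log2 fold change was -0.86 ± 0.38 (SE; adjusted p = 0.251), and -1.53 (adjusted p = 0.0255) without replicate 2. *Foxc2*, on chromosome 8 from 121116171 to 121118895, acts together with *Foxc1* in vessels and mesenchyme. Its level was 0.839, 10.3 and 0.584 CPM in *Bmal1*-/- and 9.85, 10.5, 4.34 and 4.87 CPM in WT. The gap between replicate 2 and the other 2 *Bmal1*-/- mice was 12.2-fold and 17.6-fold, wider than the 2.47-fold and 3.15-fold of *Foxc1*. The log2 fold change was -0.92 ± 0.94 (SE; adjusted p = 0.554), and -3.37 (adjusted p = 0.0479) without replicate 2. Per kilobase, *Foxc2* over *Foxc1* was 0.299 and 0.265 in *Bmal1*-/- replicates 1 and 3, 1.48 in replicate 2 and 0.637 to 1.30 in WT.

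*Tbx18*, a T-box factor of pericytes, smooth muscle and meningeal mesenchyme, lies on chromosome 9 from 87702800 to 87731260. Its level was 1.07, 1.46 and 0.812 CPM in *Bmal1*-/- and 1.68, 2.29, 3.20 and 1.92 CPM in WT. The groups did not overlap, yet replicate 2 was only 1.37 and 1.80 times the other 2 mice and WT replicate 3 was the highest WT library, unlike any other of the 10 genes. Between genotypes the log2 fold change was -1.02 ± 0.30 (SE; adjusted p = 0.138), and -1.27 (adjusted p = 0.147) without replicate 2. A gene on the opposite strand shares exon positions with it, so its counts are uncertain where counting did not use strand. Among 18 other transcription factors of meningeal mesenchyme, 16 were tested and edgeR called none (3 were lower and 1 higher at an unadjusted p under 0.05, and DESeq2 called 3 lower), with a median log2 fold change of -0.66. In 8 of the 16, replicate 2 was at least 2-fold above both other *Bmal1*-/- mice. Without replicate 2 that median was -1.28, and *Zic2*, *Twist1*, *Prrx1* and *Osr1* were called lower. The most abundant were *Prrx1*, a homeobox factor of limb and craniofacial mesenchyme (log2 fold change -0.79, adjusted p = 0.121), and *Zic1*, a zinc finger factor of dorsal neural tube and meninges (-0.40, adjusted p = 0.359).

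*Myoc* encodes myocilin, a secreted glycoprotein of the eye's outflow tissue, nerve sheaths and meninges. It lies on chromosome 1 from 162639155 to 162649693. It had 7, 30 and 9 counts in *Bmal1*-/- replicates 1, 2 and 3, and 231, 325, 104 and 183 counts in WT replicates 1 to 4. Every *Bmal1*-/- library, replicate 2 included, lay far under the lowest WT library. In CPM the levels were 0.178, 0.696 and 0.228 against 5.89, 8.35, 2.60 and 4.61, or 3.32%, 12.98% and 4.26% of the WT mean. The means were 0.368 ± 0.286 CPM (SD, n = 3) and 5.36 ± 2.41 CPM (SD, n = 4), a 14.3-fold difference (log2 fold change -3.84 ± 0.59, SE; adjusted p = 0.0308). With each library left out the log2 fold change stayed between -4.70 and -3.51. The call was kept without *Bmal1*-/- replicate 2 or WT replicate 3 and lost without any of the other 5 libraries, where the adjusted p reached 0.151. *Myocos*, on the opposite strand, shares exon positions with *Myoc*, which makes the gene uncertain, and it had 1 count in WT replicate 4 and 0 counts in the other libraries. Within a library, per kilobase, *Myoc* stood at 0.0323 to 0.0475 of *Aldh1a2* in *Bmal1*-/- and at 0.101 to 0.190 of it in WT, with replicate 2 at the bottom of the first range.

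**Figure D3:**
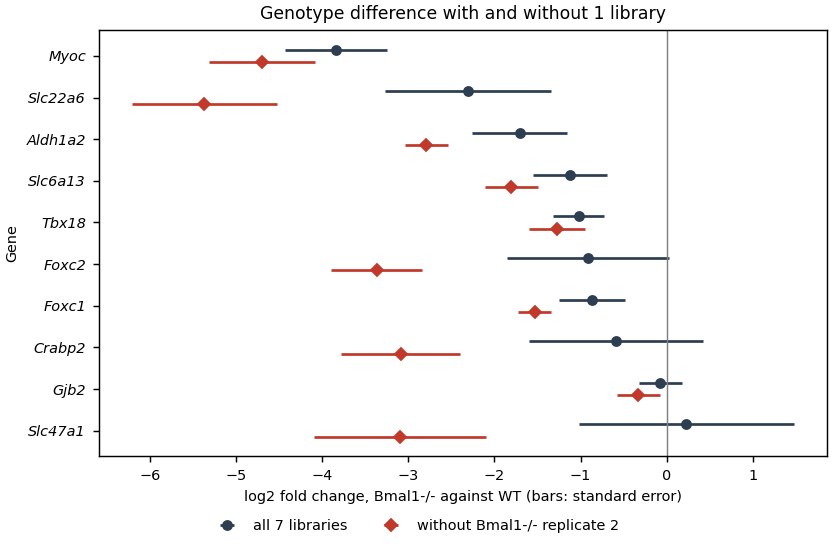
Log2 fold change of each gene, Bmal1-/- against WT, with all 7 libraries (dark circles) and without Bmal1-/- replicate 2 (red diamonds); bars are standard errors. Leaving out that 1 library moved Slc47a1 from 0.23 to -3.10, Crabp2 from -0.59 to -3.09 and Foxc2 from -0.92 to -3.37 but Gjb2 only from -0.07 to -0.33 and Tbx18 from -1.02 to -1.27.

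Levels can be compared between genes per kilobase of exon. In WT the order of the means was *Aldh1a2* (16.6 CPM per kilobase), *Crabp2* (8.20), *Gjb2* (7.47), *Slc47a1* (4.06), *Slc6a13* (3.82), *Foxc2* (2.71), *Foxc1* (2.66), *Myoc* (2.59), *Tbx18* (0.481) and *Slc22a6* (0.428). *Aldh1a2* was first in each of the 4 WT libraries. Each gene's WT values overlapped those of its neighbour in this order except at the step from *Myoc* to *Tbx18*. Within a library, *Aldh1a2* was above *Crabp2*, *Gjb2* above *Slc47a1* and *Slc6a13* above *Foxc2* in all 4 WT mice, while the other overlapping neighbours changed places between mice and do not differ beyond that spread. In *Bmal1*-/- replicates 1 and 3, *Gjb2* came first, at 6.12 and 5.78 CPM per kilobase, ahead of *Aldh1a2* at 2.47 and 2.32. Replicate 2 had *Crabp2* first at 14.4, then *Slc47a1* at 13.3 and *Aldh1a2* at 10.4. The summed level of replicate 2 was within the WT range, while *Aldh1a2* was not its first gene as it was in every WT library.

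The spread between mice of 1 genotype was wide for these genes. The SD of log2 CPM was larger in *Bmal1*-/- than in WT for 9 of the 10, all but *Gjb2*, where 22.7% of all genes showed that. Its median over the 10 genes was 1.07 in *Bmal1*-/- and 0.54 in WT, against 0.11 and 0.18 over all genes tested. *Slc47a1* had the widest spread in *Bmal1*-/-, 2.96, which 4 of the 15743 genes exceeded. *Crabp2* at 2.26 was exceeded by 21 genes, *Foxc2* at 2.20 by 25 and *Slc22a6*, which rests on 1 and 2 counts in the low mice, at 2.02 by 38. Replicate 2 was the highest *Bmal1*-/- library for all 10 genes, as it was for 31.4% of all genes. It was at least 2-fold above both other mice, on the log2 CPM scale, for 8 of the 10, all but *Gjb2* and *Tbx18*, where 1.56% of all genes were. Without replicate 2 the SD was larger in *Bmal1*-/- for 1 of the 10 genes.

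**Figure D4:**
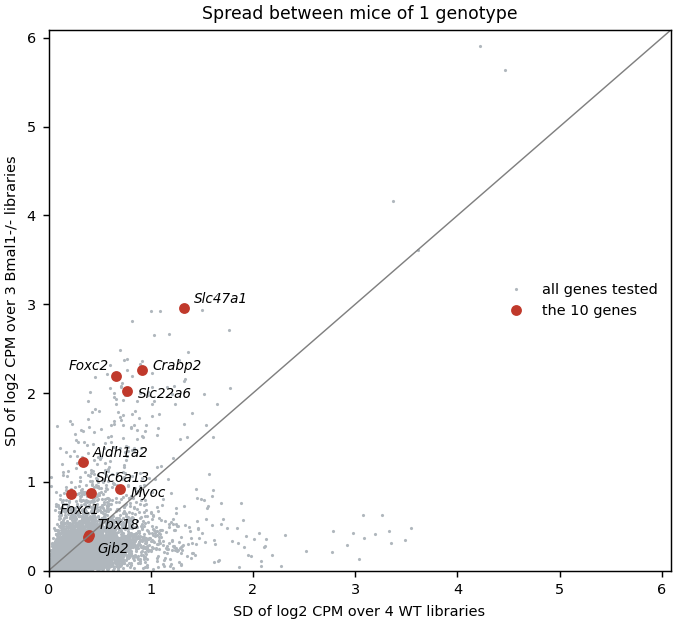
SD of log2 CPM over the 3 Bmal1-/- libraries against that over the 4 WT libraries for all genes tested (grey) and the 10 genes (red); the line marks equal spread. Slc47a1, Crabp2, Foxc2 and Slc22a6 lie above 2 on the vertical axis, while Gjb2 and Tbx18 lie on the line near 0.4.

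The WT mice also differed among themselves in step. WT replicate 2 was the highest WT library for 9 of the 10 genes and replicate 3 the lowest for 8. Both WT females stood above both WT males for 8 of the 10, all but *Slc22a6* and *Tbx18*, as for 26.3% of all genes. *Bmal1*-/- replicates 1 and 2 were both labelled female, and the part of sex in these differences was not tested. Across the 7 libraries, the 45 pairs of the 10 genes had a median Pearson's r of 0.85 on log2 CPM, from 0.13 for *Gjb2* with *Tbx18* to 0.99. Against the mean of the other 9, r was 0.98 for *Foxc1* and *Foxc2* and lowest for *Tbx18* (0.69) and *Gjb2* (0.64). These values describe 7 points that share libraries and depth, 2 of which are far from the rest.

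Among 14348 other genes with a mean of at least 1 CPM, the 12 most like the mean profile of the 10 were *Ptpn14*, *Slc13a4*, *Wif1*, *Asgr1*, *Podn*, *Efemp1*, *Prg4*, *Fbln1*, *Wnt6*, *Stra6*, *C1qtnf7* and *Igfbp6*, with r from 0.999 to 0.987 over 7 libraries. *Slc13a4*, a sulfate transporter, was counted at 1.07, 8.19 and 0.609 CPM in *Bmal1*-/- and 4.12 to 14.3 CPM in WT. *Igfbp6*, a binding protein for insulin-like growth factors, had 5.31, 67.7 and 3.15 CPM against 25.1 to 97.0 CPM. None of the 12 was called with all 7 libraries. They were picked for a profile with a wide spread among the *Bmal1*-/- mice, so this is no separate result. *Myoc* alone was most like *Fmod*, a proteoglycan of collagen fibrils, with r = 0.990. *Fmod*, looked up after the values had been seen, was low in all 3 *Bmal1*-/- mice. Its level was 9.89, 13.9 and 9.26 CPM against 32.8 to 46.7 CPM in WT (log2 fold change -1.88, adjusted p = 0.00456). It was picked for its likeness to *Myoc*, whose groups do not overlap in these same libraries. Its difference between genotypes thus follows from how it was picked and is no separate evidence.

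Other genes of the meningeal layers had smaller median differences than the 10. Of 11 further arachnoid genes, *Msx1*, a homeobox factor, was called lower (log2 fold change -0.80, adjusted p = 0.0481), and their median log2 fold change was -0.71 (-0.89 without replicate 2, where *Msx1* lost its call). Of 10 pia and perivascular fibroblast genes, *Apod*, a lipid carrier that astrocytes and oligodendrocytes also express, was called higher (log2 fold change 0.77, adjusted p = 0.0362; not called without replicate 2), and the median was -0.14. None of 10 dura fibroblast genes was called by edgeR (3 were lower at an unadjusted p under 0.05, and DESeq2 called 1 lower), with a median of -0.31. The most abundant of these were *Ndrg1*, which oligodendrocytes also express (0.28, adjusted p = 0.275), and *Kctd12* (-0.32, adjusted p = 0.194). *Bmal1*-/- replicate 2 was at least 2-fold above both other *Bmal1*-/- mice for 4 of 11 arachnoid and 2 of 10 dura genes. It was so for 0 of 10 pia and perivascular genes and for 1.56% of all genes tested. Relative to the WT mean, the arachnoid median was -0.95, -0.08 and -0.63 in *Bmal1*-/- replicates 1, 2 and 3. The dura median was -0.38, 0.22 and -0.50 in the same libraries. The arachnoid list held *Cldn11*, a tight junction protein that also forms part of CNS myelin, and at 742 to 992 CPM it made up most of that list's summed level.

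General fibroblast and matrix genes were also low in *Bmal1*-/- replicates 1 and 3 and not in replicate 2. Their 12 levels summed to 677, 2740 and 498 CPM in *Bmal1*-/- replicates 1, 2 and 3 and to 1377 to 2208 CPM in WT, so that replicate 2 was above every WT library. None was called by edgeR with all 7 libraries (2 were lower and 1 higher at an unadjusted p under 0.05, and DESeq2 called 2 lower), and the median log2 fold change was -0.60. *Col3a1* and *Col1a2*, chains of fibrillar collagens, were the most abundant, with log2 fold changes of -0.47 (adjusted p = 0.730) and -0.51 (adjusted p = 0.620). Without replicate 2 the median was -1.90, and *Dcn*, *Col1a1*, *Col1a2*, *Col3a1*, *Fbln1* and *Col6a3* were called lower. Of the 12, 10 were at least 2-fold higher in replicate 2 than in both other *Bmal1*-/- mice. The general fibroblast list thus moved with the barrier genes, and its part in their levels was not tested.

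Markers of muscle and Schwann cells, from tissue that lies beside the cord, and markers of endothelial cells, which line vessels, also differed. Of all genes tested, 13.5% had all 3 *Bmal1*-/- values under the 4 WT values. Called lower were 0.915% by edgeR and 5.81% by DESeq2. Without replicate 2, edgeR called 0.838% of the genes tested in that fit lower. All 9 skeletal muscle genes had groups that did not overlap and 8 were called lower (5 without replicate 2). Their summed level was 6.63 to 8.70 CPM in *Bmal1*-/- and 54.9 to 74.8 CPM in WT. Of 7 Schwann cell genes, 6 were tested and 5 of them had lower groups that did not overlap, with none called by edgeR, 5 lower at an unadjusted p under 0.05 and 4 called lower by DESeq2. Their sum was 72.6 to 83.4 CPM in *Bmal1*-/- and 93.7 to 353 CPM in WT. In replicate 2 the muscle sum was 7.64 CPM and the Schwann cell sum was 83.4 CPM, the highest Schwann cell sum in *Bmal1*-/-. By gene, 0 of 9 muscle and 1 of 6 Schwann cell genes were at least 2-fold higher in replicate 2 than in both other *Bmal1*-/- mice. Relative to the WT mean, the Schwann cell median was -2.23, -1.68 and -2.06 in *Bmal1*-/- replicates 1, 2 and 3. Of 8 endothelial genes, *Cdh5*, the cadherin of endothelial junctions, was called lower (log2 fold change -0.85, adjusted p = 0.0466; not called without replicate 2), and 5 had lower groups that did not overlap (5 were lower at an unadjusted p under 0.05, and DESeq2 called 3), with sums of 382 to 444 CPM and 462 to 773 CPM. The part of muscle, Schwann cells and endothelial cells in the levels of *Myoc* and of the other 9 genes was not tested.

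The remaining marker lists held no call by edgeR. At an unadjusted p under 0.05, 3 pericyte, 2 astrocyte, 1 ependymal and 2 macrophage genes were lower and 2 pericyte, 2 astrocyte and 1 ependymal genes were higher, with 0 among the oligodendrocyte, neuron, microglia, bone and cartilage genes. DESeq2 called 3 pericyte, 1 astrocyte and 2 macrophage genes lower and 1 pericyte and 1 astrocyte gene higher. The 8 pericyte and smooth muscle genes summed to 275 to 336 CPM in *Bmal1*-/- and 362 to 451 CPM in WT, and the 6 macrophage genes to 1580 to 2021 and 1575 to 3454 CPM. The 5 microglia genes summed to 941 to 1085 and 941 to 1214 CPM, and the 5 ependymal genes to 58.5 to 64.1 and 58.8 to 64.3 CPM. For astrocytes the ranges were 15861 to 18412 and 10755 to 15061 CPM, for oligodendrocytes 22021 to 27340 and 22606 to 33610 CPM, and for neurons 4244 to 5217 and 1630 to 4249 CPM. Of 6 bone and cartilage genes 5 were tested, with sums of 52.4 to 61.3 and 47.2 to 67.1 CPM. None of the 4 adipocyte genes passed the filter, with sums under 1 CPM in every library.

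**Figure D5:**
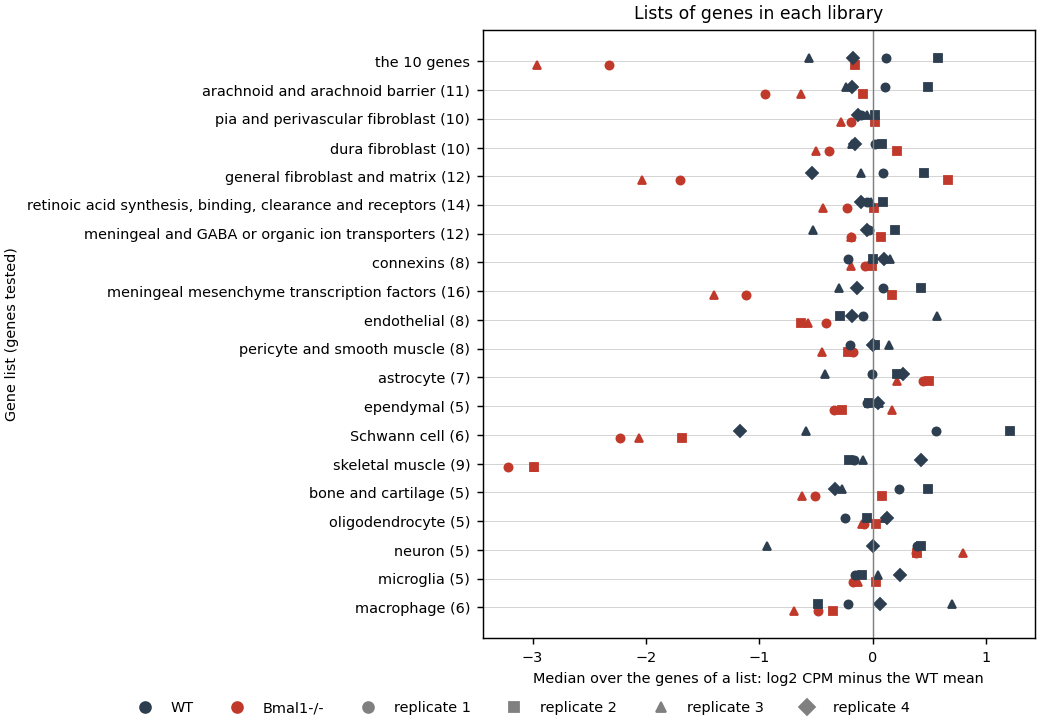
Median over the genes of each list of the log2 CPM minus the WT mean, per library, with WT in dark blue, Bmal1-/- in red and symbols for the replicate number. In the 10 genes, the general fibroblast list and the mesenchyme transcription factors, Bmal1-/- replicates 1 and 3 lie far left of replicate 2, while in the skeletal muscle and Schwann cell lists all 3 lie to the left.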

How the data were processed

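The authors prepared stranded poly-A RNASeq libraries, checked the reads with FastQC 0.10.1, aligned them to GRCm38.p6 with Tophat2 and made a count for each gene with HTSeq 0.10.0; they deposited raw counts without normalization. Annotation release and strand setting are not given in the sources used here. Each library is a separate mouse. Libraries held 38529644 to 44096737 counts. *Slc22a6* and *Myoc* had the lowest counts in a single library, 1 and 7, both in *Bmal1*-/- replicate 1. *Tbx18* was also low, with 32 to 128 counts per library.

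Genes were filtered with filterByExpr, scaled with TMM and tested on genotype with the quasi-likelihood test (edgeR 4.0.16, limma 3.58.1, R 4.3.3), with Benjamini-Hochberg adjustment over 15743 genes. Log2 CPM used a prior count of 2. The SE of an edgeR log2 fold change is its absolute value divided by the square root of the test's F statistic. Positions, overlaps and exon lengths came from GENCODE for GRCm38. The methods were tested on simulated data. Alternatives were DESeq2 1.42.0, limma-voom, RLE and upper-quartile factors, a floor of 1 count over the table or of a mean of 10 in place of filterByExpr, a term for sex, a replicate block, prior counts of 0.5 and 5, and each library left out.

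The genes, lists and tests were chosen with earlier results of these data known. Genes named are the 10, from each list of related genes those called and otherwise the 2 of highest mean CPM, the 12 most correlated with the 10, and *Arntl*; others were named after their values had been seen, among them those called without *Bmal1*-/- replicate 2, *Cldn11*, *Fmod*, *Nr1d1* and *Dbp*. A few genes the rule would name are left out here.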

Additional observations from a re-analysis of the deposited data

How the results depend on the processing

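Over all genes, 144 were called lower and 103 higher. DESeq2 called 914 and 599, and 3 of the 10 barrier genes. With a replicate block, 0 and 0 genes and 0 of the 10 were called. Mice that share a number correlated at -0.17, 0.18 and -0.29 in their deviations from the group means. Mice with different numbers correlated at -0.29 to 0.34. Deviations centred within such small groups cannot decide whether the mice were paired. Mice numbered 1 to 3 were of the same sex in both groups. With each library left out in turn, 27 to 439 genes were lower (27 without *Bmal1*-/- replicate 1, 439 without WT replicate 3), 30 to 291 were higher, 0 to 5 of the 10 were called lower and their median log2 fold change ran from -2.94 to -0.71. The number of the 10 with a larger SD in *Bmal1*-/- ran from 1 to 10, and the median difference in SD (0.76) from -0.30, without *Bmal1*-/- replicate 2, to 1.06. *Slc47a1* changed sign with limma-voom (-1.13), sex as a covariate (-0.67) and the replicate block (-1.49), and ran from -3.10 to 0.78 with 1 library left out. *Gjb2* ran from -0.33 to 0.10. The cause was not tested beyond which library each fit left out. No other direction among the 10 changed. Depth limits *Slc22a6* most, with 1 and 2 counts in 2 libraries.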
